A study of Homo sapiens with 9 samples.

Results

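DNA repair genes were followed across 3 human breast epithelial lines of the MCF-10A series. The list held 46 genes chosen by name, from homologous recombination to translesion synthesis. Of these, 42 had a probe set annotated to that gene alone, and all 42 were among the 12594 genes tested, out of 19775 genes with such a probe set. BRCA2, PMS2, FANCA and FANCD2 were not analysed here. Where a gene had several, the one brightest on average over the 9 arrays was read.

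Total RNA was hybridised to Affymetrix arrays, with 3 arrays per line. MII (MCF-10AT1Kcl2) stands for carcinoma in situ by its labels, MIII (MCF-10A1h) for carcinoma and MIV (MCF-10A1a) for metastatic carcinoma. The MCF-10A series comes from a non-tumorigenic breast epithelial line, and the later members carry activated HRAS. All 3 lines grew untreated in the same medium, with horse serum, insulin, cholera toxin, epidermal growth factor and hydrocortisone. Each stage is a single line, so stage and line cannot be told apart. Arrays of a line are labelled as biological replicates, with no word on separate cultures. The p-values therefore reflect array-to-array spread that may be technical.

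Cells repair DNA by several routes. Base excision repair removes single damaged bases, nucleotide excision repair cuts out bulky adducts, and mismatch repair corrects replication errors. Double-strand breaks are joined end to end, or are copied back from the sister chromatid by homologous recombination. Breast tissue is known for its sensitivity to inherited loss of recombination genes such as BRCA1. Fewer cells of a kind and less RNA per cell cannot be told apart in bulk RNA.

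The median signal lay between 69.0 and 71.7 on the MII arrays, between 72.1 and 74.9 on the MIII arrays and between 64.7 and 65.2 on the MIV arrays. MIV replicate 3 stood apart in the bioB hybridisation control, where it averaged 2620 and the remaining 8 arrays 823 to 1283. Calls lost without that array are named with the gene. The epithelial keratin KRT5 averaged 25794 on the MII arrays, 26308 on the MIII arrays and 25069 on the MIV arrays. MIII differed from the other lines in other lineage markers. The summed signal of the 9 measured epithelial markers, of 11 listed, was 124194 to 129957 for MII, 66499 to 67564 for MIII and 123654 to 133563 for MIV. CLDN7 lay at 23.5 in MIII, under the pooled median of 69.3. The 9 fibroblast markers summed to 1137 to 1175 for MII, 4899 to 5220 for MIII and 789 to 867 for MIV. Of the 6 fibroblast markers tested, 4 were higher in MIII than in MII, all by 2-fold or more (median log2 change 3.48). Of the 8 epithelial markers tested, 7 were lower in MIII than in MII (median -1.68). PDGFRA, a defining fibroblast receptor, was under the pooled median on all 9 arrays, with line means between 17.9 and 28.6. Leukocyte and endothelial markers, 5 measured of 7, summed to 214 to 453 over all arrays, and PTPRC and CDH5 lay under the pooled median. The part of these marker differences in the repair results was not tested.

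Changes of the repair genes were mostly small, with POLM and POLL as the exceptions. Every one of the 42 measured genes exceeded the pooled median signal on all 9 arrays. The median of each gene's largest log2 change over the 3 comparisons was 0.33 for the repair genes and 0.47 for all 12594 genes. The largest change stayed under 0.5 on the log2 scale in 32 of 42 repair genes (76.2%), against 52.7% of all genes. Changes under 1 covered 40 of 42 (95.2%), against 80.8% of all genes. These shares describe the list and carry no test. The median SD among arrays of a line was 0.12 for repair genes and 0.13 for all genes on the log2 scale.

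**Figure D1:**
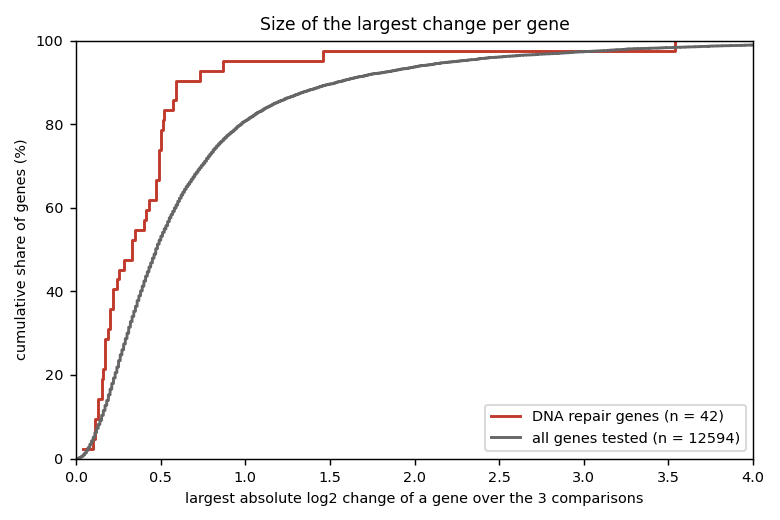
Cumulative share of genes (vertical axis, percent) by their largest absolute log2 change over the 3 comparisons (horizontal axis), for the 42 DNA repair genes and for all 12594 genes tested. The repair gene curve rises earlier, passing 76.2% at a change of 0.5 where all genes stand at 52.7%, and ends with POLM at 3.54.

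Signals were tested with limma as log2(signal + 18.3), which understates the change of dim genes, and p-values were adjusted over all genes tested. The test was passed where the adjusted p was under 0.05, and such a change was called 2-fold where it reached that size. In MIV against MIII, 10 repair genes were higher and 9 lower (19 of 42), where 51.9% of all genes passed. Only POLM and POLL reached 2-fold, both upwards, where 12.7% of all genes did (4.95% higher and 7.79% lower). Against MII, 6 were higher and 5 lower in MIV, where 42.2% of all genes passed, and POLM alone was 2-fold, upwards, against 8.14% of all genes (2.96% higher and 5.18% lower). Between MIII and MII, 7 were higher and 9 lower in MIII, where 47.2% passed, and no repair gene was 2-fold in limma, against 11.7% of all genes (6.17% higher and 5.55% lower). An F test over the 3 lines was passed by 20 of 42, where 64.2% of all genes passed. BRCA1, RAD51C, XRCC3 and OGG1 passed in a pair of lines but not in the F test (adjusted p of 0.0508, 0.0627, 0.054 and 0.0931). The share of repair genes past the test was 45.2%, 26.2% and 38.1% in the 3 comparisons of line pairs, under the background in each. Without MIV replicate 3 the count of 19 was 13, and without MIII replicate 2 the count of 16 in MIII against MII was 10. The median log2 change of the repair genes was 0.07 for MIV over MIII, 0.02 for MIV over MII and -0.03 for MIII over MII, beside -0.01, -0.03 and -0.02 for all genes. The 0.02 was 0.05 without MIV replicate 3.

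**Figure D2:**
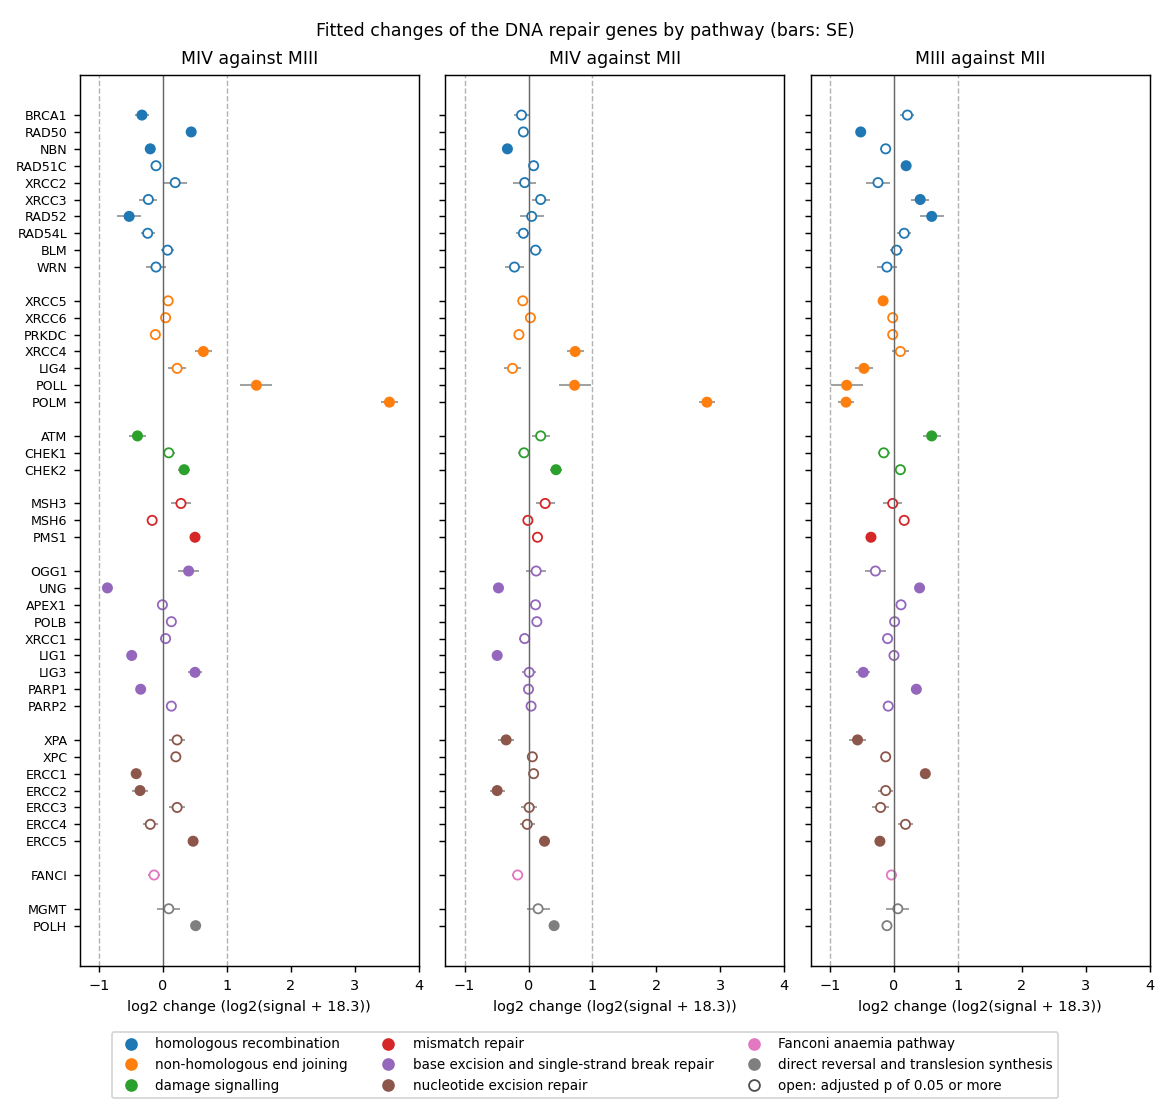
Fitted log2 change (horizontal axis, on the log2(signal + 18.3) scale) of the 42 DNA repair genes, 1 row per gene, in 3 panels, 1 per comparison. Points are coloured by pathway, bars are standard errors, filled points passed the limma test at an adjusted p under 0.05 and dashed lines mark 2-fold. POLM stands at 3.54 and 2.79 in the MIV panels, POLL at 1.46 in the first, and all other points lie within the dashed lines.

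The 3 comparisons share arrays in pairs, so values of the same gene in 2 of them are not independent. With 3 arrays against 3, the exact two-sided permutation test of a single gene cannot go below p = 0.1, and significance rests on limma's shared estimate of the variance. In 23 of 42 repair genes the 3 MIV arrays all lay above or all below the 3 MIII arrays, where 58.8% of all genes did so. The count was 17 for MIV over MII, where the background was 50.7%, and 18 for MIII over MII, where it was 55.3%.

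Non-homologous end joining held the largest changes of the list, in both of the polymerases that it uses to fill gaps. POLM encodes DNA polymerase mu, which fills short gaps at ends held together by the Ku proteins and ligase IV. Its signal was 346, 343 and 365 on the MII arrays, 245, 165 and 200 on the MIII arrays and 2509, 2265 and 2850.3 on the MIV arrays. The MIV arrays thus lay far above all others, and the MIII arrays lay below those of MII without overlap. POLM rose by 3.54 ± 0.13 (SE, n = 3 arrays per line) in MIV against MIII, an 11.6-fold rise on the offset scale (limma adjusted p = 4.35e-11). Against MII it rose by 2.79 ± 0.13 in MIV, or 6.9-fold (limma adjusted p = 9.22e-10). In MIII against MII it fell by 0.75 on the log2 scale (limma adjusted p = 0.000248). Ranked by change from the highest, POLM stood at place 24 of 12594 genes for MIV over MIII and at place 18 for MIV over MII. It was measured by a single probe set, which carries the suffix _s_at given to probes that can match several transcripts.

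POLL encodes DNA polymerase lambda, the close relative of polymerase mu, which acts in end joining and in base excision. It had signals of 222.5, 276 and 281 in MII, 242, 145.5 and 88.3 in MIII and 481, 402 and 437 in MIV. The MIV arrays lay above all others, while the MIII arrays were widely spread and 1 of them lay within the range of MII. POLL rose by 1.46 ± 0.25 in MIV against MIII, a 2.76-fold rise (limma adjusted p = 0.000187), and without MIII replicate 3 the change was 1.15. MIV differed from MII by 0.72 ± 0.25 (limma adjusted p = 0.0296), a call that was lost without MII replicate 1, MII replicate 2, MIV replicate 1 or MIV replicate 3, at changes of 0.62 to 0.77. In MIII against MII it was -0.74 ± 0.25 (limma adjusted p = 0.0234), and -0.42 without MIII replicate 3, when the call was lost, as it was without MII replicate 2, MII replicate 3 or MIII replicate 2. Without MIII replicate 1 it was -1.07. It too was measured by a single probe set with the suffix _s_at.

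**Figure D3:**
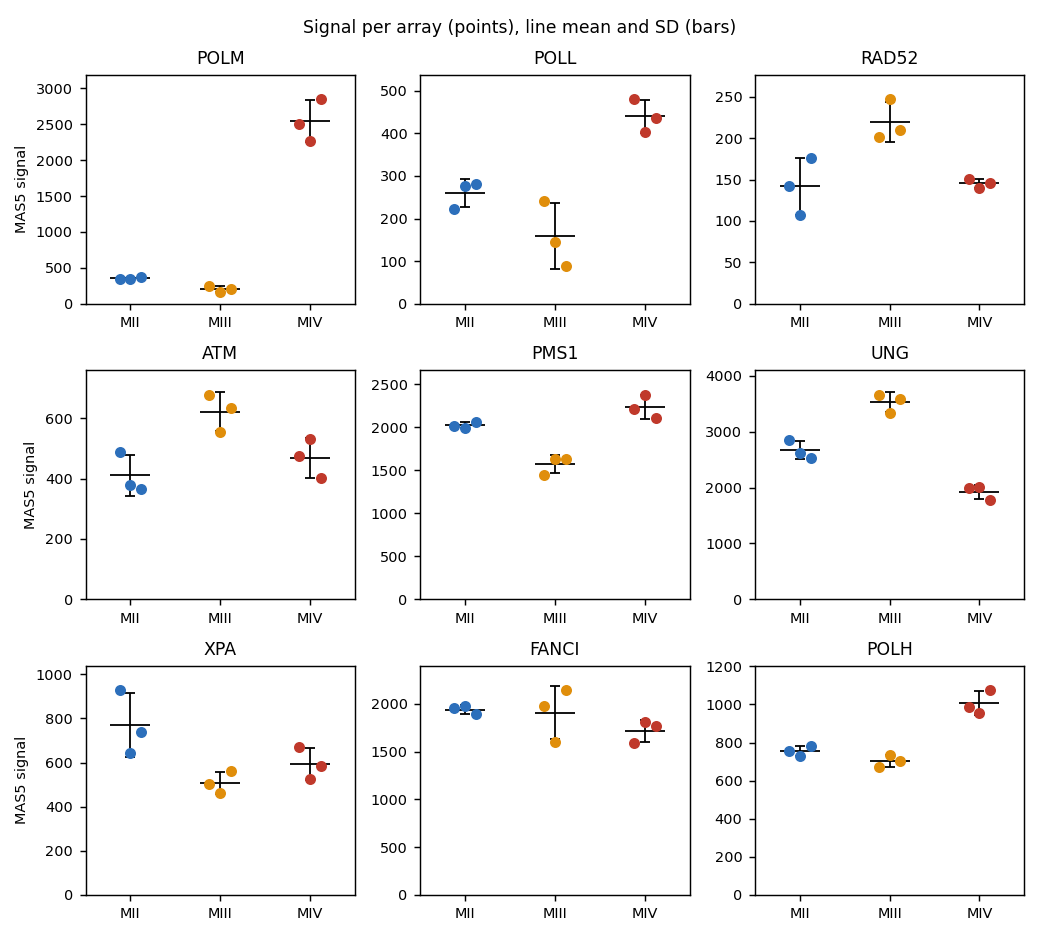
MAS5 signal (vertical axes, linear and starting at 0) on each of the 9 arrays for 9 repair genes, with the lines MII, MIII and MIV along the horizontal axes. Points are arrays and bars the line mean and SD. POLM reaches 2265 to 2850.3 in MIV against 165 to 365 elsewhere, UNG is highest in MIII and lowest in MIV, and the FANCI arrays of MIII spread around those of MII.

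XRCC4, the scaffold that holds ligase IV at a break, rose less. Its signal was 361, 323 and 497 in MII, 407, 425 and 421 in MIII and 649, 635 and 684.5 in MIV, so the MIV arrays lay above all others. The log2 change was 0.63 ± 0.13 in MIV against MIII (limma adjusted p = 0.00124) and 0.73 ± 0.13 in MIV against MII (limma adjusted p = 0.000553). It was read from a probe set with the suffix _x_at, whose probes can cross-hybridise. Its _s_at probe sets gave 0.78, which passed, and 0.40, which did not, in MIV against MIII. Over MII they gave 0.54 and 0.80, and both passed. The only suffix-free probe set of XRCC4 was dim, with line means of 82.6 to 103. It gave -0.50 ± 0.48 over MIII and -0.24 ± 0.48 over MII, neither past the test. With all probe sets averaged the change over MIII was 0.32 and did not pass.

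None of the other 4 genes of the pathway passed in either MIV comparison on its brightest probe set. The Ku subunits XRCC5 and XRCC6 grip the broken ends, and PRKDC is the kinase they recruit. Their log2 changes were 0.08 ± 0.05, 0.04 ± 0.06 and -0.12 ± 0.06 in MIV against MIII, none past the test. A dimmer PRKDC probe set gave -0.31 there and passed the test over all probe sets. XRCC5 was lower in MIII than in MII by a small margin (-0.17 ± 0.05, limma adjusted p = 0.0113), a call lost without MIII replicate 2. Its other bright probe set gave -0.04 and did not pass. The suffix-free probe set of XRCC5 was dim, with line means of 94.3 to 105, and gave 0.12 ± 0.23. LIG4, which seals the ends, was lower in MIII than in MII (-0.47 ± 0.14, limma adjusted p = 0.0111), a call lost without MIII replicate 2 (-0.33), and did not pass in MIV against MIII (0.22 ± 0.14). On their brightest probe sets, 3 of the 7 end joining genes thus rose and none fell in MIV against either line. Of all genes, 25.3% were higher over MIII and 20% over MII. In MIII against MII none rose and 4 fell, where 24.3% of all genes were lower.

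The genome around POLM and POLL was looked at for genes that moved with them. The 3 annotated genes on either side of POLM were not among the genes tested. The 10 nearest tested genes, 5 on either side, were looked up after the POLM values had been seen. They had log2 changes between -0.22 and 0.54 for MIV over MIII and between -0.38 and 0.33 for MIV over MII. POLD2, a subunit of the replicative polymerase delta and the nearest tested gene on one side, was at 0.05 ± 0.11 for MIV over MIII and at 0.31 ± 0.11 for MIV over MII. Around POLL, several neighbours rose in MIV. DPCD, the next gene on one side, rose by 0.62 ± 0.07 in MIV against MIII (limma adjusted p = 2.55e-06) and by 0.82 ± 0.07 over MII (limma adjusted p = 3.05e-07). In MIII against MII, DPCD rose by 0.19 ± 0.07 (limma adjusted p = 0.0278), where POLL was at -0.74. FBXW4 rose by 0.50 over MIII and 0.60 over MII, OGA by 0.72 and 0.56 and NPM3 by 1.09 and 0.65, while ARMH3 was at 0.07 and -0.28 and did not pass. These and the tested genes beyond BTRC were also looked up after the POLL values had been seen. On the other side BTRC was at 0.25 ± 0.12 and 0.06 ± 0.12, short of the test. TLX1NB, at 0.07 and -0.05, and KAZALD1, at -0.27 and -0.22, also fell short. Farther out, SFXN3 rose by 0.32 and 1.17 and LZTS2 by 0.39 and 0.30, all past the test.

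**Figure D4:**
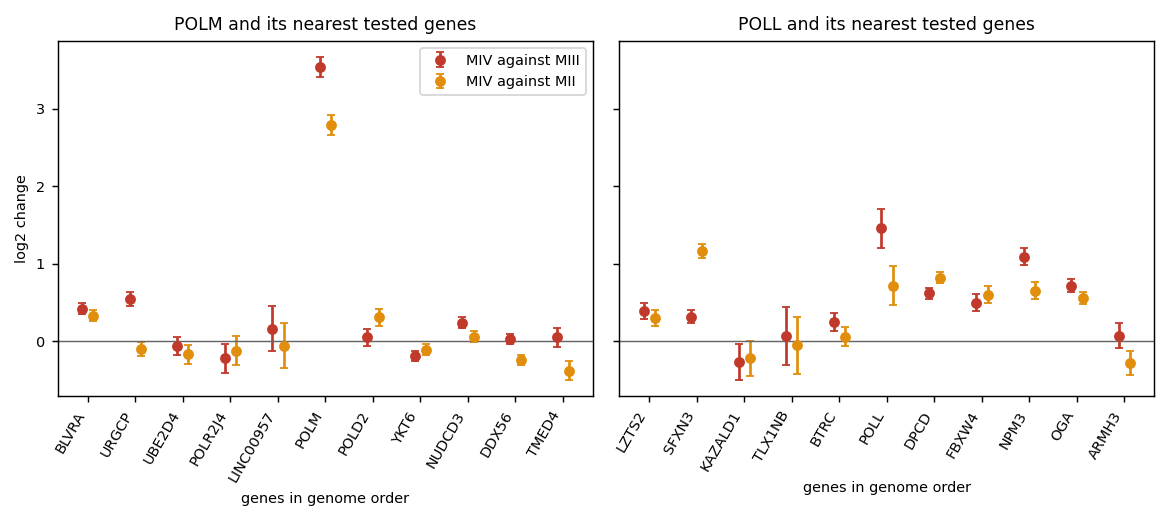
Log2 change (vertical axis, bars are SE) of MIV over MIII and of MIV over MII for POLM (left) and POLL (right), each among its 10 nearest tested genes in genome order (horizontal axis, not to scale). POLM rises to 3.54 and 2.79 while its neighbours stay within 0.54 of 0, and DPCD, FBXW4, NPM3 and OGA rise beside POLL.

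The promoter of POLM is shown because POLM carries the largest change of the list, and the bases between POLL and DPCD because both genes rose in MIV. Both sequences are from RefSeq on build GRCh38.p14, read 5′ to 3′ on the minus strand that both polymerase genes lie on. The first is the 250 bases before the start of POLM, at chr7:44082531-44082780, where no other annotated gene lies. The second is the 50 bases that separate the start of POLL from that of DPCD, which runs on the opposite strand, at chr10:101588271-101588320. Capitals mark matches on either strand to GGGCGG, the core of the Sp1 motif, and to CCAAT, the CCAAT box. Also searched were TTTNGCGC for E2F, CACGTG for the E-box, the NRF1 motif and TGACGTCA for CRE.
POLM: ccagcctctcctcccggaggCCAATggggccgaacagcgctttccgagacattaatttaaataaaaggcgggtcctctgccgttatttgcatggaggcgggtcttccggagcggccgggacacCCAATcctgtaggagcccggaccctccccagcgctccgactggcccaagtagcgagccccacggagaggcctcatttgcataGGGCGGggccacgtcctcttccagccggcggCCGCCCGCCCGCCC
POLL to DPCD: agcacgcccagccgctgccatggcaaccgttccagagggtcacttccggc
The POLM window held 2 CCAAT boxes and 4 matches to the Sp1 core, 3 of which overlap at its end, and none of the other motifs. The shorter window held no match to any of the 6 motifs. Among 35116 promoters, counted over the same 250 bases before the start, 42.6% held an Sp1 core and 32% a CCAAT box. Of the tested repair genes, 36 had a promoter in the table, of which 28 held an Sp1 core, 18 a CCAAT box, 9 an NRF1 match, 4 a CRE, 3 an E-box and 3 an E2F match. The shares over all promoters were 5.07% for NRF1, 1.65% for CRE, 6.34% for the E-box and 1.51% for E2F. A match describes these letters and is not a measured binding site.

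Base excision and single-strand break repair held calls in both directions, at shares close to those of all genes in MIV against MIII. UNG, the glycosylase that removes uracil from DNA, had signals of 2846, 2625 and 2530.4 in MII, 3664, 3334 and 3594 in MIII and 1983, 2004 and 1769.7 in MIV. The 3 lines did not overlap, with MIII highest and MIV lowest. UNG fell by 0.87 on the log2 scale in MIV against MIII (SE 0.07, limma adjusted p = 1.21e-07) and by 0.47 in MIV against MII (limma adjusted p = 7.9e-05). It was the largest fall among the repair genes in MIV against MIII. In MIII against MII it rose by 0.40 ± 0.07 (limma adjusted p = 0.000229).

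LIG1, the ligase that seals replication and repair nicks, fell in MIV against both lines. Its signal was 1176, 1199 and 1214 in MII, 1226, 1200.0 and 1161 in MIII and 830, 842 and 872 in MIV. The MIV arrays lay below all others, and MII and MIII overlapped. The log2 change was -0.49 ± 0.07 over MIII and -0.49 ± 0.07 over MII (limma adjusted p of 2.84e-05 and 4.62e-05). Of 31 tested genes of proliferation and S phase, 13 were lower and 3 higher in MIV against MIII (median -0.10), where 26.6% and 25.3% of all genes were. Over MII, 8 were lower and 10 higher (median 0.06), where 22.2% and 20% of all genes were. The part of cell cycling in the fall of UNG and LIG1 was not tested.

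LIG3, the ligase of single-strand break repair, and PARP1, which senses such breaks, moved in opposite directions in MIII on their brightest probe sets. LIG3 averaged (± SD, n = 3) 589 ± 86.6 in MII, 414 ± 13.2 in MIII and 592 ± 28.9 in MIV, lower in MIII than in either line. Its log2 change was 0.50 ± 0.11 in MIV against MIII (limma adjusted p = 0.0016) and -0.48 ± 0.11 in MIII against MII (limma adjusted p = 0.00226). The other tested LIG3 probe sets gave 0.56, 0.44, 0.16 and 0.07 in MIV against MIII. Of these, 0.56 and 0.44 passed the test over all probe sets. In MIII against MII they gave -0.58, -0.20, 0.01 and -0.18, and only -0.58 passed. PARP1 averaged 2337 ± 49.8 in MII, 2979 ± 177 in MIII and 2338 ± 160 in MIV. The log2 change of PARP1 was -0.35 ± 0.06 in MIV against MIII (limma adjusted p = 0.000429) and 0.35 ± 0.06 in MIII against MII (limma adjusted p = 0.000517). OGG1, the glycosylase of oxidised guanine, passed the test at its edge in MIV against MIII (0.40 ± 0.16, limma adjusted p = 0.0483), and its arrays overlapped. The call was lost without MII replicate 3, MIII replicate 1, MIII replicate 2 or any 1 MIV array, and with the replicate number as a block. The abasic site nuclease APEX1, the gap-filling polymerase POLB, the scaffold XRCC1 and PARP2 passed in no comparison on their brightest probe sets. Their log2 changes there lay between -0.10 and 0.13. A dimmer PARP2 probe set passed the test over all probe sets, at 0.26 in MIV against MIII and -0.25 in MIII against MII. On the brightest probe sets, 2 of the 9 genes were higher and 3 lower in MIV against MIII, where 25.3% and 26.6% of all genes were. Over MII none was higher and 2 were lower in MIV, where 20% and 22.2% of all genes were.

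In homologous recombination no gene reached 2-fold. The member with the largest change was RAD52, which anneals single strands. RAD52 had signals of 143, 107 and 175.5 in MII, 201, 247 and 209.6 in MIII and 150.4, 139.7 and 146 in MIV. The MIII arrays lay above all others, and the MIV arrays fell inside the range of MII. The log2 change was -0.53 ± 0.19 in MIV against MIII (limma adjusted p = 0.0287) and 0.59 ± 0.19 in MIII against MII (limma adjusted p = 0.0194). The first call was lost without either MIII replicate 2 or MIII replicate 3 and without any 1 of the MIV arrays, the second without MII replicate 2 or MIII replicate 2. Neither passed with all probe sets averaged, at -0.37 and 0.23.

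RAD50 and NBN belong to the complex that detects and trims broken ends. RAD50 had signals of 3279, 3764 and 3761 in MII, 2281, 2771 and 2487 in MIII and 3424, 3448 and 3348 in MIV, with all MIII arrays below the others. On this probe set the change was 0.44 ± 0.07 in MIV against MIII (limma adjusted p = 0.000194) and -0.52 ± 0.07 in MIII against MII (limma adjusted p = 5.39e-05). The probe sets of RAD50 did not share a direction. Another one gave 0.48 and -0.69, and the last -0.62 and 0.35, each past the test over all probe sets, so no direction is given for the gene. The log2 change of NBN was -0.33 ± 0.07 in MIV against MII (limma adjusted p = 0.00186), and 3 other probe sets gave -0.52, -0.38 and -0.35. Its smaller change in MIV against MIII (-0.20 ± 0.07, limma adjusted p = 0.0291) was lost without MIII replicate 1, MIII replicate 3, MIV replicate 2 or MIV replicate 3. The 3 other probe sets of NBN gave -0.14, 0.29 and -0.05 there, none past the test. Between MIII and MII they passed at -0.37, -0.67 and -0.30, while the brightest gave -0.13 and did not pass.

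BRCA1, which directs breaks towards recombination, averaged 777 ± 52.2 in MII, 910 ± 137 in MIII and 719 ± 73.2 in MIV. Its log2 change in MIV against MIII was -0.33 ± 0.11 (limma adjusted p = 0.0241), and the arrays of the lines overlapped. The call was lost without MIII replicate 1 (-0.21), MIV replicate 2 or MIV replicate 3, and the other BRCA1 probe set gave -0.14 and did not pass. In MIII against MII that probe set passed the test over all probe sets at 0.31, while the brightest gave 0.21 and did not pass. RAD51C and XRCC3, which act in the strand exchange steps of recombination, passed on their brightest probe sets in MIII against MII alone, at 0.19 ± 0.07 and 0.41 ± 0.14 (limma adjusted p of 0.031 and 0.0263). Both calls were lost without MII replicate 1 or MIII replicate 3, that of RAD51C also without MII replicate 3 or MIII replicate 2, and that of XRCC3 without MII replicate 2 or MIII replicate 1. The other RAD51C probe set gave -0.10 there, and passed in MIV against MIII at 0.34, where the brightest gave -0.11, so no direction is given for RAD51C. XRCC2, which acts in the same steps, the translocase RAD54L and the helicases BLM and WRN did not pass in any comparison, with log2 changes between -0.25 and 0.19. Of the 10 genes, 1 was higher and 3 were lower in MIV against MIII, and 0 were higher and 1 lower when MIV was set against MII. The one counted as higher is RAD50, whose last probe set turned to -0.62. Of all genes, 25.3% were higher and 26.6% lower over MIII, and 20% and 22.2% over MII.

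Among the damage signalling kinases, ATM and CHEK2 differed between lines, and CHEK1 did not pass on its brightest probe set. ATM, the kinase activated by double-strand breaks, had signals of 489, 377 and 365 in MII, 678, 553 and 635 in MIII and 475, 531 and 400.2 in MIV. The MIII arrays lay above all others, and those of MII and MIV overlapped. The change was -0.40 ± 0.14 in MIV against MIII (limma adjusted p = 0.0248) and 0.59 ± 0.14 in MIII against MII (limma adjusted p = 0.00281). Without MIII replicate 1, MIII replicate 3 or MIV replicate 3 the first call was lost, at -0.38 to -0.29. With all probe sets averaged neither passed, at -0.29 and 0.33. CHEK2, a kinase downstream of ATM, averaged 659 ± 22.5 in MII, 709 ± 44.9 in MIII and 899 ± 87.3 in MIV. CHEK2 rose in MIV by 0.33 ± 0.09 against MIII and by 0.43 ± 0.09 against MII (limma adjusted p of 0.00683 and 0.00154). CHEK1, the kinase of stalled replication forks, had log2 changes between -0.16 and 0.09 on that probe set. Another CHEK1 probe set passed the test over all probe sets in MIII against MII, at -0.33.

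In mismatch repair, PMS1, a relative of the MutL endonuclease subunits, was lowest in MIII. It had signals of 2017, 1996.5 and 2060.4 in MII, 1448, 1634.5 and 1635 in MIII and 2215, 2379 and 2112 in MIV, and no arrays of the 3 lines overlapped. PMS1 rose by 0.50 ± 0.07 in MIV against MIII (limma adjusted p = 2.61e-05) and fell by 0.36 in MIII against MII (limma adjusted p = 0.000529). It passed on 2 dimmer probe sets too in MIV against MIII, at 0.79 and 0.81, while another gave -0.48 and did not pass. With all probe sets averaged, the changes were 0.21 and -0.15, and neither passed. That average took in a PMS1 probe set too dim to be tested. The mismatch sensors MSH3 and MSH6 did not pass in any comparison, with log2 changes between -0.17 and 0.28.

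**Figure D5:**
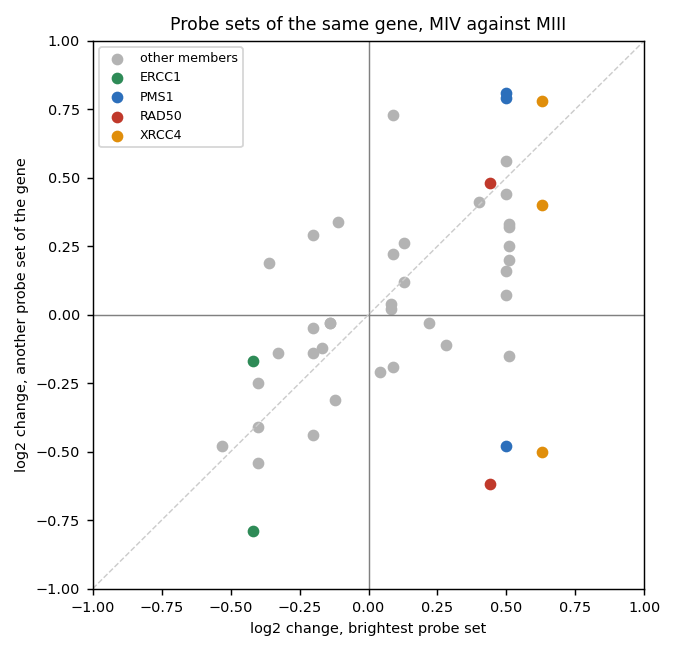
Log2 change in MIV against MIII of a gene's brightest probe set (horizontal axis) and of each other tested probe set of the same gene (vertical axis), 1 point per other probe set. Points on the dashed line would give the same change. Both ERCC1 points lie below 0 on both axes, while RAD50 has points at 0.48 and -0.62 beside 0.44, and XRCC4 and PMS1 each have 1 point near -0.5.

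Over all pathways, 11 genes with another tested probe set passed in MIV against MIII in the test over all probe sets, on their brightest one. In 6 of them another probe set passed in the same direction, and RAD50 alone had one that passed in the opposite direction. OGG1 is not among the 11, since its brightest probe set fell short in that test (limma adjusted p = 0.0533). The plot of probe sets of the same gene shows where they part.

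In nucleotide excision repair, ERCC1 was high in MIII and ERCC2 low in MIV on their brightest probe sets. ERCC1, which with ERCC4 cuts the damaged strand on its 5′ side, had signals of 2565, 2177 and 2157 in MII, 3639, 3052 and 3042 in MIII and 2376, 2378 and 2504 in MIV. All MIII arrays lay above the others. The change was -0.42 ± 0.08 in MIV against MIII (limma adjusted p = 0.000699) and 0.49 ± 0.08 in MIII against MII (limma adjusted p = 0.000201). The brighter of its suffix-free probe sets gave -0.79 and 0.64, and the dimmer -0.17 and -0.03, neither past the test. ERCC4 did not pass, at -0.20 ± 0.12 in MIV against MIII.

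XPA, which verifies the lesion, had the largest change of the pathway, in MIII against MII. Its signals were 929, 642 and 738 in MII, 501, 460.3 and 560.0 in MIII and 671, 524 and 586 in MIV. The MIII arrays lay below those of MII, and the MIV arrays overlapped with both. XPA fell by 0.57 in MIII against MII (SE 0.13, limma adjusted p = 0.00297). Over MII the change in MIV was -0.35 ± 0.13 (limma adjusted p = 0.0482), with overlapping arrays. That call was lost under 14 of 20 alternatives, among them without MIV replicate 3, and without MII replicate 1 the change was -0.21.

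ERCC2, a helicase of the TFIIH complex, fell in MIV against MII by 0.49 on the log2 scale (SE 0.12, limma adjusted p = 0.00548). In MIV against MIII its change was -0.36 ± 0.12 (limma adjusted p = 0.0246), lost without MIII replicate 3 or MIV replicate 3 at -0.28 and -0.27, and with all probe sets averaged, at -0.08. The other ERCC2 probe set gave 0.19 over MIII and -0.30 over MII, neither past the test. ERCC5, the nuclease that cuts on the 3′ side, rose by 0.47 ± 0.08 in MIV against MIII (limma adjusted p = 0.000265) and by 0.25 ± 0.08 in MIV against MII (limma adjusted p = 0.0265). The second of these calls was lost without MIV replicate 3 (0.18), MII replicate 1 or MII replicate 2. In MIII against MII its change was -0.22 ± 0.08 (limma adjusted p = 0.0396), lost under 8 of 20 alternatives. The lesion sensor XPC and the TFIIH helicase ERCC3 passed in no comparison. Of the 7 genes, 1 was higher and 2 lower in MIV against either line, or 42.9%, where 51.9% of all genes passed over MIII and 42.2% over MII.

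The remaining members were FANCI, MGMT and POLH. FANCI, a clamp protein of the Fanconi anaemia pathway that repairs DNA crosslinks, had signals of 1952.5, 1981 and 1889 in MII, 1973, 1602 and 2144 in MIII and 1589, 1805 and 1766 in MIV. The MIV arrays lay below those of MII, but the change of -0.17 ± 0.09 did not pass (limma adjusted p = 0.153). MGMT, which strips alkyl groups from guanine, averaged 405 ± 84.8 in MII, 420 ± 58.7 in MIII and 455 ± 104 in MIV. Its change was 0.09 ± 0.18 over MIII and 0.15 ± 0.18 over MII in MIV, and its arrays overlapped. POLH, the polymerase that copies past ultraviolet lesions, had signals of 754, 732 and 783 in MII, 669.6, 734 and 700.3 in MIII and 988, 954 and 1075 in MIV. Its MIV arrays lay above all others. POLH rose by 0.51 ± 0.08 over MIII (limma adjusted p = 0.000105) and by 0.40 ± 0.08 over MII (limma adjusted p = 0.0011). With all 6 probe sets averaged the change was 0.24 and 0.02, and neither passed.

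Other genes of the same pathways, 107 tested of 120 listed, changed mostly by less than 2-fold. In MIV against MIII, 32 were higher and 15 lower (median 0.09), where 25.3% and 26.6% of all genes were. Over MII, 33 were higher and 10 lower (median 0.09), where 20% and 22.2% of all genes were. In MIII against MII, 24 were higher and 17 lower, where 22.9% and 24.3% of all genes were. The 2-fold changes numbered 3 in each MIV comparison, where 12.7% (over MIII) and 8.14% (over MII) of all genes were called, and 1 in MIII against MII, where 11.7% were. SFR1, a recombination factor that works with SWI5, averaged 3597 ± 469 in MIV, against 1408 ± 197 in MIII and 1762 ± 168 in MII. SFR1 rose by 1.34 ± 0.11 over MIII and 1.02 ± 0.11 over MII (limma adjusted p of 1.74e-07 and 4.74e-06). SWI5 itself went the other way in MIV, at -0.78 ± 0.08 over MIII and -0.32 ± 0.08 over MII (limma adjusted p of 1.6e-06 and 0.00494).

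RMI2, which works with the helicase BLM, rose by 1.04 ± 0.14 in MIV against MIII (limma adjusted p = 2.17e-05), while BLM itself was at 0.07 ± 0.10 and did not pass. TIMELESS, which protects replication forks, fell by 1.11 on the log2 scale in MIV against MIII (limma adjusted p = 5.61e-09). The helicase RECQL rose by 1.22 ± 0.06 in MIII against MII. HMCES, which shields abasic sites, rose by 1.05 ± 0.08 in MIV against MII, and DDB2, a sensor of ultraviolet lesions, by 1.07 ± 0.07 (limma adjusted p of 1.88e-07 and 3.18e-08). DDB2 averaged 900.0 ± 40.4 in MII, 1431 ± 78.0 in MIII and 1909 ± 78.2 in MIV.

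DDB2, POLH and XPC are also targets of p53. Of 19 tested p53 targets, 8 were higher and 2 lower in MIV against MIII (median 0.15), where 25.3% and 26.6% of all genes were. Over MII, 9 were higher and 3 lower (median 0.19), where 20% and 22.2% of all genes were. The part of p53 activity in these values was not tested. MDM2, the ligase that degrades p53, rose by 1.14 ± 0.06 in MIV against MIII. GDF15, a secreted stress factor, rose by 1.22 ± 0.05 over MIII and by 1.02 ± 0.05 over MII. CDKN1A, a cell cycle inhibitor on the list, had log2 changes of -2.09 over MIII and -2.40 over MII, both past the test. Of the 12 replicative polymerase subunits, 6 were lower and 1 was higher in MIV against MIII (median -0.24), where 26.6% and 25.3% of all genes were. The 2-fold change among them was POLD4, a small subunit of polymerase delta, with a rise of 1.14 ± 0.15 in MIV against MII (limma adjusted p = 3.64e-05).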

How the data were processed

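Per the labels and the submitters' processing notes, the authors deposited MAS5 intensities, linear and 1 for each probe set of an array; a software version was not given in the sources used here. Scaling had been applied: on every array the central 96% of values averaged 499.92. Of 54675 probe sets, 41091 name 1 gene in the platform annotation, 1801 several and 11721 none. Probe sets naming 1 gene were used, and 41037 matched a RefSeq gene number.

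Signals were analysed as log2(signal + 18.3), the pooled 25th percentile. A gene was its highest-mean probe set and was tested if 3 or more of 9 arrays exceeded the pooled median of 69.3. A model of the 3 line means, with 6 residual degrees of freedom and an intensity trend, was fitted in limma 3.58.1 (R 4.3.3), with Benjamini-Hochberg adjustment over 12594 genes. The code was tested on simulated data. By rule, array by array values are given for genes called at 2-fold and for the member with the largest change in each pathway. Those of XRCC4, LIG1, RAD50 and ERCC1 were added after their values were seen. In other lists, up to 3 genes called at 2-fold are named, and SWI5 is given beside its partner SFR1. Members and lists were chosen with earlier results of these data known.

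Same-numbered arrays of different lines deviated together by correlations of -0.073 to 0.046, so the replicate numbers were not used as pairs. The number of arrays limits the precision, with a median standard error of 0.11 on the log2 scale.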

Additional observations from a re-analysis of the deposited data

How the results depend on the processing

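Of 46 member changes past the test, 21 kept direction and call under all alternatives run and 25 lost one of them under at least 1. POLM kept its calls, at 3.26 to 3.67 in MIV against MIII and 2.63 to 2.87 in MIV against MII, and so did UNG, but each has 1 probe set, with a suffix, and was not read under the suffix-free alternative. Suffix-free probe sets (29 members) gave 9, 6 and 8 members past the test for MIV over MIII, MIV over MII and MIII over MII, with 0 called 2-fold in the MIV comparisons, medians of -0.11, -0.06 and -0.001, and 11 in the F test. They turned RAD50 (-0.62), XRCC4 (-0.50) and PMS1 (-0.48) in MIV against MIII, XRCC4 (-0.24) over MII, and RAD50 (0.35), XRCC5 (0.12) and PMS1 (0.05) for MIII over MII. In the test over all probe sets, only the RAD50 readings among these passed. Those of XRCC4, XRCC5 and PMS1 came from dim probe sets, with line means of 82.6 to 142. This alternative read only the brightest suffix-free probe set of a gene. A dimmer suffix-free one gave 0.48 for RAD50 and 0.79 for PMS1 in MIV against MIII, both past that test. For MIII over MII it gave -0.69 for RAD50, which passed, and -0.39 for PMS1, which did not. The suffix-free probe sets of RAD50 and PMS1 thus did not share a direction. The mean of all probe sets gave 11 past the test in MIV against MIII, with a median of 0.04, and a median of -0.003 in MIII against MII. That mean weighed every probe set of a gene alike. For RAD52, ATM and PMS1, among others, it took in probe sets too dim to be tested. A filter at the pooled 75th percentile left 1 gene called 2-fold in MIV against MIII, since POLL was no longer tested. Scaling to the same median gave medians of 0.06 for MIV over MII and 0.01 for MIII over MII. Leaving out 1 array at a time gave 13 to 19, 8 to 12 and 10 to 16 past the test, the 13 without MIV replicate 3 and the 10 without MIII replicate 2. The 2-fold counts in MIII against MII were 0 to 1, the 1 being POLL (-1.07) without MIII replicate 1. Medians then ran from 0.02 to 0.08, 0.01 to 0.05 (0.05 without MIV replicate 3) and -0.08 to -0.03. With the replicate number as a block, 18, 11 and 16 members passed, and the only call lost was that of OGG1 in MIV against MIII. Without the intensity trend 16, 9 and 13 members passed, and 8 of the 46 calls were lost. With no filter on signal 17, 9 and 14 passed, and 6 calls were lost. The cause of these differences was not tested, beyond the fewer genes of the suffix-free and stricter filters.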
